A study of Mus musculus with 20 samples.

Results

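The genes described here are 10 imprinted genes that act on growth, Dlk1, H19, Igf2, Meg3, Nnat, Peg3, Mest, Cdkn1c, Plagl1 and Grb10. They were chosen by name from the 31053 gene rows of the count tables, and all 10 had a row. The study profiled stromal vascular cells of mouse interscapular brown adipose tissue (iBAT) by droplet-based single-cell RNA sequencing, to find which cells give rise to new brown adipocytes in the cold. Cells were split by magnetic beads against blood lineage markers into Lin- and Lin+ fractions, and levels were followed in the 10 Lin- libraries, each a pool of tissue from 3 to 4 mice aged 8 to 14 weeks. A level is the corrected count of a gene summed over the cells of a class in 1 library and scaled to the total count of those cells, in CPM. Because only the 3' ends of transcripts were counted, levels were compared between cells and not between genes.

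An imprinted gene is transcribed mainly from the allele inherited from one parent. Dlk1, Igf2, Nnat, Peg3, Mest and Plagl1 are expressed from the paternal allele in most tissues, and H19, Meg3, Cdkn1c and Grb10 mainly from the maternal allele. Many of these genes are high in the fetus and decline after birth, and several bear on adipose tissue. DLK1, also called PREF-1, is a membrane protein that holds preadipocytes back from differentiation, MEST is linked to adipocyte enlargement, GRB10 dampens signaling by the insulin receptor, and CDKN1C (p57) restrains the cell cycle.

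Several members lie side by side in the genome (GRCm38, to which mm10 corresponds). Dlk1 (chromosome 12, 109452823 to 109463336, plus strand) starts 88.2 kb from Meg3 (109541001 to 109571726, plus strand), a long noncoding RNA. On chromosome 7, minus strand, the noncoding RNA H19 (142575529 to 142578143) starts 75.2 kb from Igf2 (142650766 to 142666816), which in turn starts 807.6 kb from Cdkn1c (143458339 to 143461050). Peg3 lies far away on the same chromosome (6703892 to 6730431, minus strand). The others are Nnat on chromosome 2 (157560078 to 157562522, plus strand), Mest on chromosome 6 (30723547 to 30748465, plus strand), Plagl1 on chromosome 10 (13060504 to 13131694, plus strand) and Grb10 on chromosome 11 (11930508 to 12038683, minus strand). All 2445 bases of Nnat lie inside Blcap on the opposite strand, and Igf2 overlaps the model Gm49394 on its own strand, so counts of Igf2 are uncertain.

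Nnat was also the gene with which the study marked differentiating cells in tissue sections, by in situ hybridization with designed DNA probes. The 1 probe of 6 that lies wholly in the coding part of the transcript is shown, and all 35 bases, in capitals, are complementary to 6 annotated Nnat transcripts and to no other annotated gene.
Nnat probe: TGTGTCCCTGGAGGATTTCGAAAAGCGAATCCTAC

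Some of the members also host microRNAs, which the 3' counts do not measure. The mature sequences are from RefSeq (GRCm38.p6) and are shown, with the seed (bases 2 to 8) in capitals, for the noncoding RNAs H19 and Meg3 and for Mest, since their levels below are levels of the host transcripts. The miR-675 pair is in an exon of H19, miR-770-5p in an exon of Meg3 and miR-335-5p in an intron of Mest. No seed is shared among these 4.
mmu-miR-675-5p: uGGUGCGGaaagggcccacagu
mmu-miR-675-3p: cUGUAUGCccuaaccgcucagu
mmu-miR-770-5p: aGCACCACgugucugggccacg
mmu-miR-335-5p: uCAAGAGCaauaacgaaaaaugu

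The 250 bases upstream of a transcript start are shown for Dlk1 and Mest, the members whose transcripts fell in ASC1-like cells of C57 mice after cold. The Mest window is among several for that gene and lies at a start inside the span given above. Imprinting acts through methylation of CG sites, so these are in capitals (the motif CG reads the same on both strands). Dlk1 at chr12:109452573-109452822 (plus strand) holds 8 CG, a number that 43.0% of the 32851 promoter windows in the RefSeq table reach, and the Mest window at chr6:30737803-30738052 (plus strand) holds 14, reached by 29.4%. The median over all windows was 6. Windows were found for 8 of the members, without H19 and Cdkn1c. Methylation was not measured here, and the counts describe sequence only.
Dlk1 promoter: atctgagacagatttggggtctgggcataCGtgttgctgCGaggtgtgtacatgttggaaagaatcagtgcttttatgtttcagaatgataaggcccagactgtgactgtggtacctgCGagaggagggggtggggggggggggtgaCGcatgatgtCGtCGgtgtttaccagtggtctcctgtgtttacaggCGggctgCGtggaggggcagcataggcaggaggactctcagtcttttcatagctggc
Mest promoter: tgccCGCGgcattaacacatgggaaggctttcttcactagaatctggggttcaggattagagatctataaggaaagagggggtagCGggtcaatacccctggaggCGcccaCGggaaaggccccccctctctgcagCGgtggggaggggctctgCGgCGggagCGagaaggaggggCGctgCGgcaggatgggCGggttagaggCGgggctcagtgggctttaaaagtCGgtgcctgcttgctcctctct

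Male C57BL/6J mice (C57) were kept at room temperature (RT, 24 °C), exposed to 6 °C (COLD, 4 days), or given CL316,243 by infusion at 0.75 nmol per hour over the same time (CL), an agonist of the β3-adrenergic receptor that acts on brown adipocytes, with 2 Lin- libraries for each treatment. Female mice of the Adrb1 line gave 1 Lin- library each at RT and after 4 days of cold for WT (Adrb1 fl/fl; Pdgfra-CreER -/-) and KO (Adrb1 fl/fl; Pdgfra-CreER +/-), and all of them received tamoxifen. In KO mice the tamoxifen-activated Cre is driven by the Pdgfra promoter, so cells without PDGFRA keep the receptor gene. The RT libraries of the Adrb1 line were made with version 3 of the reagent kit and all others with version 2. Per the study, treatments in that line also differed in collection day. So cold, kit and day cannot be told apart there, and sex differs between the lines. Adrb1 itself was at 2.85 to 8.35 CPM in ASC1-like cells of the 8 libraries from C57 and WT mice, at 0.536 CPM in KO COLD and at 0 in KO RT, where 3 counts would be 2.46 CPM. The sources used here do not say which part of the gene is removed.

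The Lin- libraries held 89637 barcodes, of which 66339 passed the filters the study states. In C57 RT 2 only 28.0% passed, since 72% of its barcodes exceeded 10% mitochondrial counts, and in KO RT 57.7% passed, against 79.2% to 96.2% in the others. Median corrected counts per cell ran from 1204 in C57 CL 1 and 1247 in C57 RT 2 to 3881 in C57 COLD 2. Libraries shared at most 193 barcodes, and the 15 comparisons of replicate sums gave chi-square values per degree of freedom of 4.72 to 41.5, so no replicate was a repeat of another.

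Cell classes came from clustering without the imprinted genes, so their levels did not shape the clusters. The classes used here were 12949 ASC1-like, 11807 ASC2-like and 7786 ASC3-like adipose stromal cells (ASCs), 1302 Cthrc1-high stromal cells, 2464 cycling cells, 2064 differentiating cells, 8113 vascular endothelial-like (VEC-like) cells, 2069 pericyte-like and 1690 vascular smooth muscle-like (VSMC-like) cells, and 3077 immune-like cells as a reference for free RNA. A cluster was named by rule where at least 3 markers of a list were raised over the other cells. ASC1-like cells formed 1 cluster led by Smoc2 and another led by the chemokine genes Cxcl10 and Cxcl9, and the second held 1.5% and 3.52% of them at RT in C57 mice, 69.0% and 83.6% in COLD and 39.0% and 33.0% under CL. Of the Cthrc1-high cells, 947 came from C57 CL 1 alone. Cycling and differentiating cells numbered under 20 in most RT libraries, and the 25 cells in the differentiating cluster of WT RT were left out because their summed adipocyte markers were at 408 CPM against 8695 to 27680 CPM elsewhere. Of the cycling cells, 69.1% held at least 2 stromal and fewer than 2 immune marker counts, and 10 of 2464 held at least 2 immune counts.

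Each gene had its own pattern over the 10 classes plotted. Among these, Dlk1 was highest in pericyte-like cells, Cdkn1c in VEC-like cells, Nnat in differentiating and cycling cells, H19 in cycling, Cthrc1-high, VSMC-like and ASC2-like cells, Mest in ASC1-like and ASC3-like cells, and Peg3 in these and in pericyte-like cells. The H19 classes had unlike sets of libraries. Within libraries ASC2-like cells were above cycling cells in 4 of 6 and above Cthrc1-high cells in 4 of 6. Meg3 was high in pericyte-like cells and in all stromal classes, Grb10 and Plagl1 were highest in ASC2-like and Cthrc1-high cells, and Igf2 was close to absent. Clusters outside these classes could be higher: Peg3 was at 322 to 475 CPM in 21 to 38 muscle-like cells of 4 libraries, and Mest was above ASC1-like cells in 8 of 10 libraries in an unnamed cluster led by Derl3 and Gsc. These are descriptions of cells from the same libraries, given with the number of libraries that share an order and with no test.

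**Figure D1:**
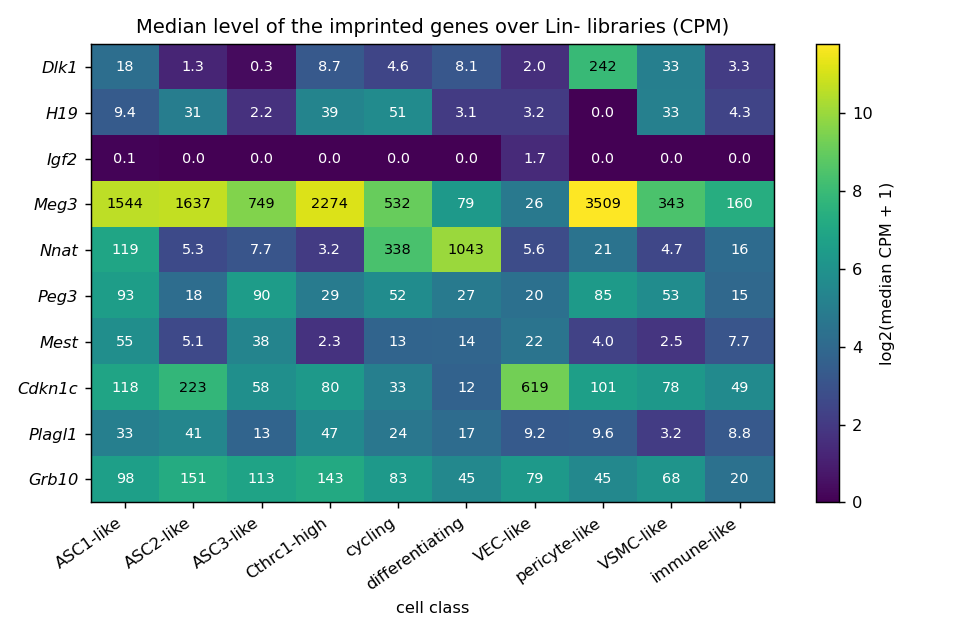
Median level of each imprinted gene over the Lin- libraries with at least 20 cells of a class, in CPM (numbers) and on a log2(CPM + 1) color scale, with genes in rows and cell classes in columns; the differentiating column leaves out WT RT, and rows are to be read across and not against each other. Dlk1 peaks in pericyte-like cells at a median of 242 CPM, Cdkn1c in VEC-like cells at 619 CPM and Nnat in differentiating cells at 1043 CPM.

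Among the classes plotted, Dlk1 had its highest CPM in pericyte-like cells. Its level in pericyte-like cells was 845 and 732 CPM in C57 RT, 252 and 239 in COLD, 246 and 235 under CL, 50.7 in WT RT, 168 in WT COLD, 80.5 in KO RT and 291 in KO COLD. Pericyte-like cells were above every other class listed in each library, including VSMC-like cells (10 of 10), which ranged from 4.88 to 73.0 CPM. ASC1-like cells had the highest level of the 3 stromal subtypes at RT, and were above ASC2-like cells in 10 of 10 libraries and above ASC3-like cells in 9 of 10. ASC2-like cells held at most 4.02 CPM, near the 13.9 CPM or less of immune-like cells. After thinning to 1000 counts per cell, 9.55% to 29.3% of pericyte-like and 0.342% to 7.14% of ASC1-like cells held a Dlk1 count in the 6 C57 libraries (unthinned 11.7% to 36.9% and 1.35% to 12.5%), with the pericyte-like share higher in each. In the Adrb1 line the COLD libraries had the same order (7.06% against 0.719% in WT and 4.69% against 0.796% in KO, unthinned 9.45% against 3.06% and 5.75% against 4.48%), and the RT libraries were less clear: in WT RT 3.39% of pericyte-like and 3.66% of ASC1-like cells held one (unthinned 6.67% and 7.57%), and in KO RT 4.62% and 2.74% (unthinned 5.97% and 11.6%).

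Igf2, the growth factor that shares a locus with H19, gave 65 whole counts among 210836658 in the sums of Lin- cells. ASC1-like cells held 6 of them in 61954598 counts, ASC2-like cells 3, ASC3-like cells 2 and pericyte-like cells 0, where 3 counts would be 0.833 CPM. Reads lost to the overlapping model are not covered by that limit. VEC-like cells held 19, and 17 of these lay in the endothelial cluster led by Stmn2, Gkn3 and Sox17, an arterial-type set. An unnamed cluster with markers of both pericytes and endothelium (Rgs5, Sema3g and Stmn2) held 22 more. In the Stmn2 cluster the level was 0 to 8.74 CPM over the 10 libraries. Igf2 was too low for a test in any class.

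H19 was above immune-like cells of the same library in ASC2-like cells in 10 of 10 libraries. Its level there was 25.5 and 53.0 CPM in C57 RT, 21.2 and 21.1 in COLD, 252 and 91.7 under CL, 73.7 and 22.0 in WT at RT and after cold, and 35.9 and 24.1 in KO. The CL libraries were above the C57 RT and COLD libraries. Cthrc1-high cells reached 575 and 279 CPM under CL, 70.0 in WT RT and 5.12 to 7.33 in C57 COLD 2, WT COLD and KO COLD. In these COLD libraries 3.70% of 27, 3.57% of 56 and 3.57% of 28 cells held an H19 count (unthinned), so the levels rest on very few cells. H19 was among the 10 leading genes of the Cthrc1-high cluster, although it had no part in forming it. VSMC-like cells held 11.9 to 90.4 CPM and were above pericyte-like cells in 9 of 10 libraries, with pericyte-like cells at 0 in 6 of 10. Differentiating cells had at most 6.58 CPM.

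Meg3, the noncoding neighbor of Dlk1, was also highest in pericyte-like cells, with 1972 to 5309.9 CPM and a median of 3509. It stood at 1281 to 2049 CPM in ASC1-like cells, 1125 to 2743 in ASC2-like cells and 387 to 1766 in ASC3-like cells. ASC1-like cells were above ASC2-like cells in 5 of 10 libraries, so these neighbors in the order did not differ beyond their spread. The level was lower in cycling cells (173 to 773 CPM) and lowest among cells of stromal origin in differentiating cells, at 92.6 and 44.2 CPM in C57 COLD, 54.6 and 66.5 under CL, 91.3 in WT COLD and 307 in KO COLD. Each of these lay below the ASC1-like cells of the same library. VEC-like cells had 6.72 to 80.2 CPM and immune-like cells 28.0 to 454. Across 113 class-by-library levels, Dlk1 and Meg3 had a Pearson correlation of 0.406, a description in which points share libraries.

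Nnat, which encodes the small endoplasmic reticulum membrane protein neuronatin, was high where cells were differentiating or cycling. Differentiating cells held 1395 and 1090.1 CPM in C57 COLD, 697 and 825 under CL, 995 in WT COLD and 1360.2 in KO COLD. Cycling cells held 1084 and 450.3 CPM in C57 COLD, 312 and 365 under CL, 154 in WT COLD and 135 in KO COLD. In all 6 libraries the order was differentiating above cycling above ASC1-like cells. ASC1-like cells ranged from 70.8 to 279.6 CPM and exceeded ASC2-like, ASC3-like, VEC-like, mural and immune-like cells in 10 of 10 libraries. Within ASC1-like cells the Smoc2 cluster was above the Cxcl10 cluster in 10 of 10 libraries, with medians of 208 and 45.2 CPM. Thinned to 1000 counts, 29.0% to 46.0% of differentiating and 5.0% to 35% of cycling cells held an Nnat count (unthinned 48.8% to 65.5% and 13.2% to 50.9%).

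**Figure D2:**
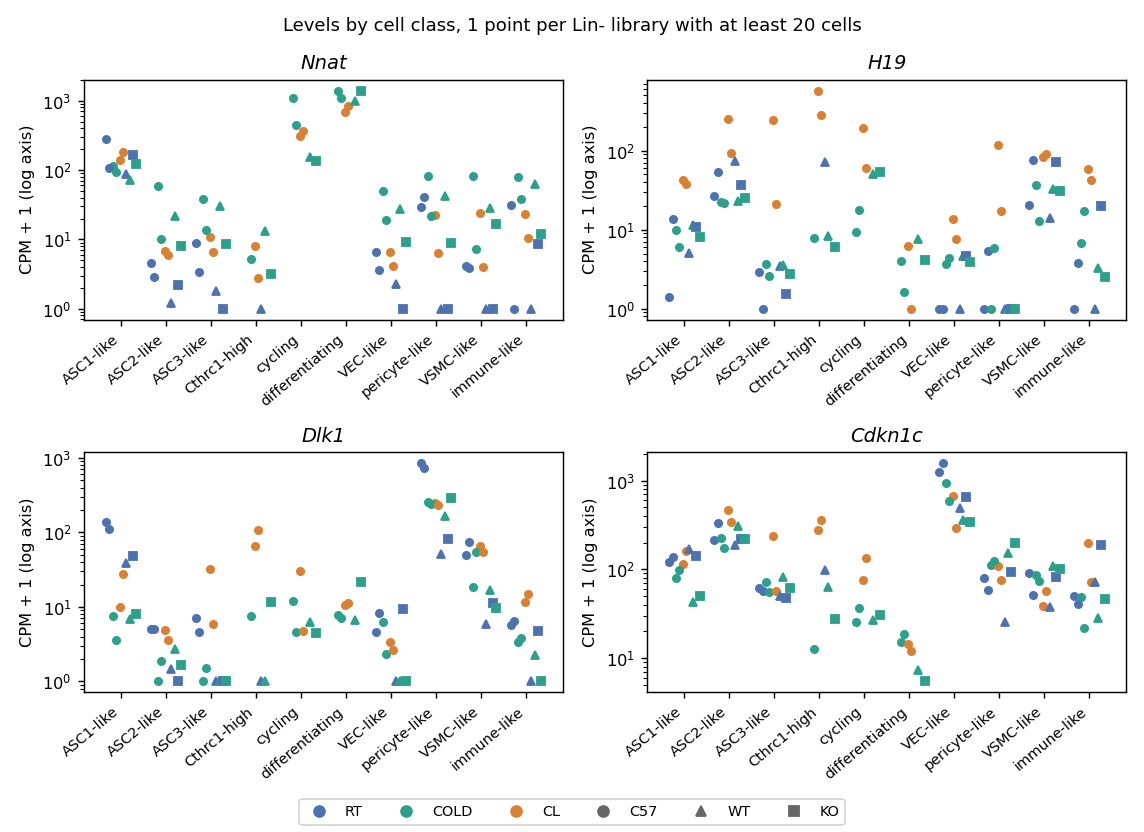
Level of Nnat, H19, Dlk1 and Cdkn1c by cell class (CPM + 1, log axis), with 1 point for each Lin- library that had at least 20 cells, colored by treatment and shaped by line (C57, WT, KO). Nnat in differentiating cells lies at 697 CPM or more in 6 libraries, and H19 in Cthrc1-high cells reaches 575 and 279 CPM in the CL libraries.

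Mest, which encodes a protein of the hydrolase fold, separated the stromal subtypes. ASC1-like cells held 17.7 to 104 CPM and ASC3-like cells 18.9 to 95.8, whereas ASC2-like cells held 1.76 to 10.4 and were below ASC1-like cells in 10 of 10 libraries. In VEC-like cells Mest was at 36.4 and 23.5 CPM in C57 RT, 21.3 and 19.4 in COLD and 123 and 51.0 under CL. Among endothelial clusters the one led by Gpihbp1, a capillary gene, was above the Stmn2 cluster in 10 of 10 libraries, with medians of 33.1 and 11.4 CPM. An unnamed stromal cluster led by Cilp and Thbs4 reached 383 and 160.2 CPM under CL against 4.72 to 70.9 in the other 8 libraries.

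Peg3, a zinc finger protein, was at a median of 93.2 CPM in ASC1-like and 90 in ASC3-like cells, against 17.7 in ASC2-like cells. ASC2-like cells were the lowest of these 3 classes in 10 of 10 libraries, and ASC1-like and ASC3-like cells did not differ beyond their spread, with ASC3-like cells higher in 6 of 10. Plagl1, another zinc finger factor that regulates imprinted genes, had 23.2 to 59.0 CPM in ASC1-like, 24.3 to 96.1 in ASC2-like and 35.9 to 211 in Cthrc1-high cells. It was at or below 5.76 CPM in VSMC-like cells. Among endothelial clusters Plagl1 was lower in the Gpihbp1 than in the Stmn2 cluster in 10 of 10 libraries (medians 3.65 and 11.1 CPM), the opposite order to Mest.

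Cdkn1c was above all other classes in VEC-like cells, apart from 1 library each in the comparisons with ASC2-like and Cthrc1-high cells. VEC-like cells held 1250.4 and 1567 CPM in C57 RT, 943 and 584 in COLD, 674 and 293 under CL, 496 and 361 in WT at RT and after cold, and 654 and 341 in KO. The Gpihbp1 cluster had a median of 989 CPM, the Stmn2 cluster 421 and the cluster led by Vwf and Selp, genes of venous endothelium, 61.5, which was below both others in 10 of 10 libraries. ASC2-like cells came second with 172 to 467 CPM and were above ASC1-like and ASC3-like cells in 10 of 10 libraries. Cycling cells (24.6 to 133 CPM) and differentiating cells (4.47 to 17.6 CPM) were low. Grb10, an adaptor that binds insulin and IGF receptors, had medians of 98.1, 151 and 113 CPM in ASC1-like, ASC2-like and ASC3-like cells and 79.0 CPM in VEC-like cells. ASC2-like cells exceeded ASC1-like cells in Grb10 in 10 of 10 libraries.

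The first question of the treatment comparisons was which of these genes changed in the cold in ASC1-like cells, the stromal class at the center of the study. Dlk1 was at 139 and 110.1 CPM in C57 RT and 6.51 and 2.60 in COLD. Dlk1 fell by 4.76 on the log2 scale (SE 0.57, adjusted p = 0.00159, edgeR quasi-likelihood test over all genes with Benjamini-Hochberg adjustment, threshold 0.05). Mest was at 81.0 and 104 CPM in RT and 42.7 and 27.2 in COLD, and also fell (-1.27, SE 0.22, adjusted p = 0.00813). Peg3 was at 22.2 and 75.8 CPM in RT and 135 and 138 in COLD, and rose (1.82, SE 0.30, adjusted p = 0.00651). For these 3 genes the RT and COLD libraries did not overlap. With 2 libraries per group this adds nothing to the calls, and the share over all genes is not given here.

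The remaining 6 tested members did not pass. Nnat was at 279.6 and 107 CPM in RT and 115 and 91.6 in COLD (-0.95, adjusted p = 0.281), Plagl1 at 29.7 and 55.2 against 29.2 and 23.2 (-0.48, adjusted p = 0.166), and Cdkn1c at 121 and 137 against 79.6 and 98.2 (-0.40, adjusted p = 0.398). H19, Meg3 and Grb10 had log2 fold changes of 1.00, -0.34 and -0.06. So 3 of 9 tested members were called, while 12.5% of all 12448 genes tested were called, and the median log2 fold change was -0.40 over the members and 0.01 over all genes. Where 1 library is left out, the lone library of its group is assumed to vary like the libraries of the other groups. Without C57 RT 2, the library with few passing barcodes, H19 was at 3.83 and Nnat at -1.65. C57 RT 1 was then the only RT library, and 0.214% of its ASC1-like cells held an H19 count (unthinned). So H19 is not read as a call there. Mest was not called without C57 COLD 2 (-1.03, adjusted p = 0.0680) or without C57 RT 1 (-1.08, adjusted p = 0.0637).

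The cell makeup of the class moved with cold. The Cxcl10 cluster grew as given above, the 4 summed stromal markers went from 25050 and 27030 CPM in C57 RT to 13600 and 15170 in COLD, and the 6 proliferation markers from 11.7 and 19.5 to 279 and 195 CPM. Within the Smoc2 cluster alone, a choice made after the data were seen, Dlk1 was at 141 and 109 CPM in RT and 13.3 and 4.9 in COLD (-3.71, adjusted p = 0.00685). There Mest was at -1.15 (adjusted p = 0.0496) and Peg3 at 1.91 (adjusted p = 0.0105), so the 3 calls stood within that cluster, Mest only just. The share of all genes called in that fit is not given here.

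**Figure D3:**
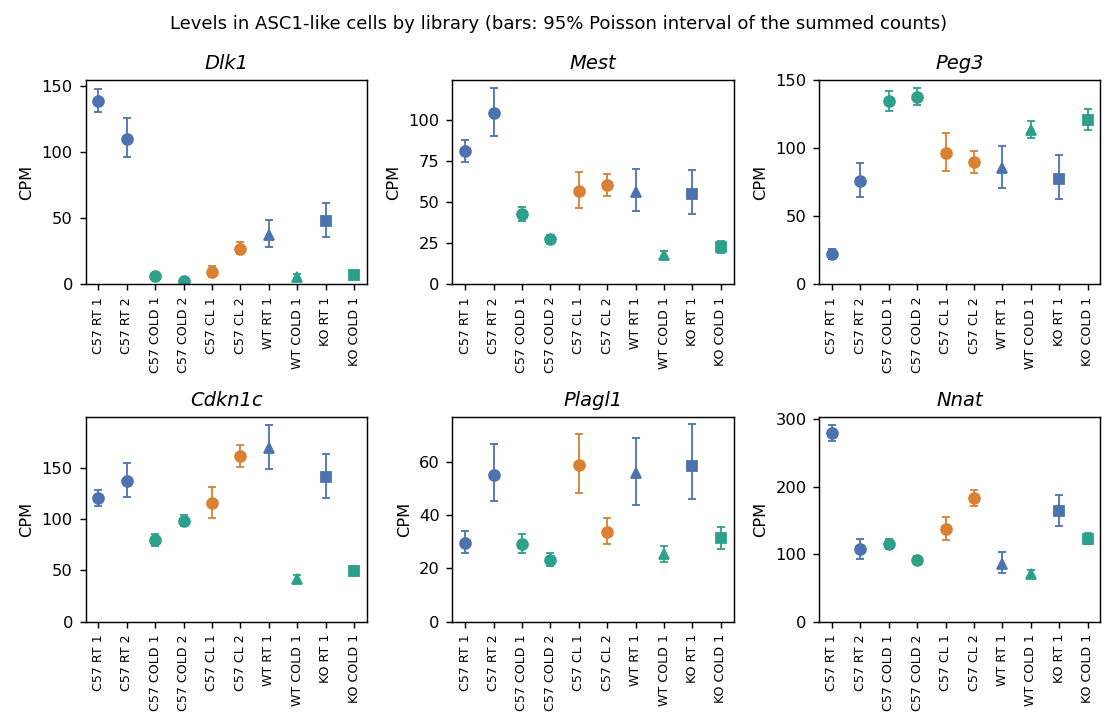
Levels in ASC1-like cells in each Lin- library (CPM, linear axes from 0) for Dlk1, Mest, Peg3, Cdkn1c, Plagl1 and Nnat, colored by treatment (RT blue, COLD green, CL orange) and shaped by line; bars are exact 95% Poisson intervals of the summed counts and cover counting error only. Dlk1 lies at 37.4 CPM or more in the 4 RT libraries and at 6.98 CPM or less in the 4 COLD libraries.

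The Adrb1 line gave the same direction for these genes. In WT, Dlk1 was at 37.4 CPM at RT and 5.84 after cold, 6.41-fold lower, and in KO at 47.5 and 6.98, 6.80-fold lower. Mest went from 55.9 to 17.7 CPM in WT and from 55.0 to 22.4 in KO, and Peg3 from 85.6 to 114 and from 77.4 to 121. With 1 library per group these values have no test, and the kit and collection day changed with temperature. Dlk1 in ASC1-like cells was lower at RT in WT and KO than in both C57 libraries, and the difference between lines cannot be told apart from sex and kit.

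Over all 8 libraries at RT or after cold, with line as a block, 5 of 9 members were called, where 26.8% of 12321 genes were. Dlk1 (-3.74, SE 0.47, adjusted p = 0.000478), Mest (-1.32, SE 0.18, adjusted p = 0.000782), Cdkn1c (-1.02, SE 0.28, adjusted p = 0.0224) and Plagl1 (-0.70, SE 0.17, adjusted p = 0.0138) fell, and Peg3 rose (1.21, SE 0.30, adjusted p = 0.0152). Cdkn1c went from 169 to 41.7 CPM in WT and from 141 to 49.1 in KO, 4.04- and 2.87-fold lower, and was 1.51- and 1.40-fold lower in the C57 pairs. Plagl1 went from 55.7 to 25.4 CPM in WT, from 58.7 to 31.3 in KO and from 55.2 to 23.2 in the second C57 pair, but stood at 29.7 and 29.2 in the first. Both calls rested on the Adrb1 line: without WT RT or without WT COLD only Dlk1, Mest and Peg3 were called, with Cdkn1c at -0.72 and -0.71 and Plagl1 at -0.58 and -0.57. Cdkn1c was also not called without KO RT (-0.91) or KO COLD (-0.90), or in the Smoc2 cluster alone (-0.43, adjusted p = 0.202). In the Adrb1 line cold cannot be told apart from kit and collection day, and the line block does not remove this.

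Under CL infusion no member was called in ASC1-like cells by edgeR (0 of 9), where 1.47% of all genes were called. An unadjusted p under 0.05 was reached by 3 members and by 1705 of all 12448 genes. Dlk1 was at 9.08 and 27.0 CPM, below both RT libraries (-2.47, SE 0.52, adjusted p = 0.0647), Peg3 at 96.5 and 89.8, above both (1.35, SE 0.31, adjusted p = 0.0810), and H19 at 41.9 and 37.4 against 0.407 and 12.8 (3.59, SE 0.72, adjusted p = 0.0517). With the replicate number as a block, H19 (3.62, adjusted p = 0.0309) and Peg3 (1.38, adjusted p = 0.0269) were called. DESeq2 called 2, Dlk1 (adjusted p = 0.00703) and Peg3 (adjusted p = 0.0256). Deviations of same-numbered RT and CL libraries had a correlation of -0.034 in these cells, so the numbers did not pair them in the data. Dlk1 was called without C57 CL 2, H19 without C57 RT 1, and Peg3 (1.94) without C57 RT 2. H19 was at 6.42 without C57 RT 2, where C57 RT 1, at 0.407 CPM, was the only RT library left. This value of H19 is not read as a call. H19 in ASC1-like cells did not exceed the immune-like cells of the same CL libraries, which held 58.0 and 41.9 CPM. It was above VEC-like cells in 10 of 10 libraries, and thinned to 1000 counts 3.35% and 1.17% of ASC1-like cells held an H19 count under CL against 2.67% and 0.61% of immune-like cells (unthinned 5.22% and 4.39% against 2.03% and 1.73%). The part of free RNA in that level was not tested.

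Setting cold directly against CL in ASC1-like cells, edgeR called 0 of 9 members and 0.41% of all genes, and DESeq2 also called 0 members. With edgeR an unadjusted p under 0.05 was reached by 6 members and by 1486 of all 12448 genes. Relative to CL, cold had lower values of Dlk1 (-2.30, adjusted p = 0.177), H19 (-2.58, adjusted p = 0.144), Mest (-0.85, adjusted p = 0.182) and Plagl1 (-0.84, adjusted p = 0.175). One library decided calls here as well, since Dlk1 was called without C57 CL 1 (-2.82, adjusted p = 0.0317) and H19 without C57 RT 2 (-2.59, adjusted p = 0.0369) or C57 RT 1.

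**Figure D4:**
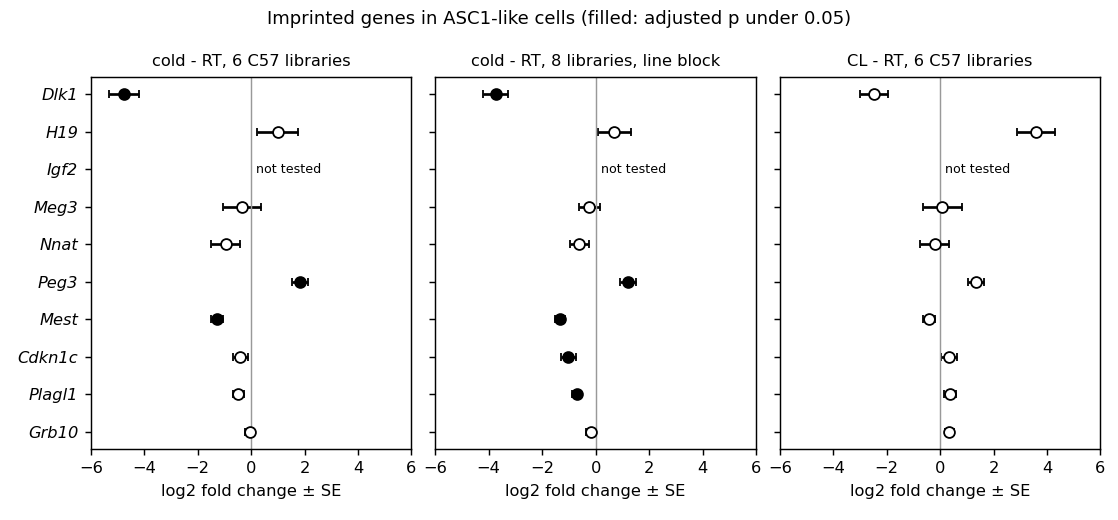
Log2 fold changes with standard errors of the imprinted genes in ASC1-like cells for cold against RT in the 6 C57 libraries, cold against RT in 8 libraries with line as a block, and CL against RT in the C57 libraries; filled points have an adjusted p under 0.05. Dlk1 is at -4.76, -3.74 and -2.47, and Igf2 was not tested.

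In ASC2-like cells 2 of 9 members and 1094 of 10889 genes had an unadjusted p under 0.05 in edgeR after cold. Under CL these were 4 members and 932 genes. EdgeR called 0 of 9 members after cold (0.68% of all genes) and 0 of 9 under CL (0.0459%). DESeq2 called 1 in each, Nnat after cold and H19 under CL. H19, with the levels given above, had a log2 fold change under CL of 2.37 (SE 0.36, adjusted p = 0.101), and with the replicate number as a block it was called (2.31, adjusted p = 0.0397), as it was without C57 CL 2. Nnat was at 3.60 and 1.82 CPM in RT and 57.5 and 9.27 in COLD (3.35, adjusted p = 0.148). With the block it was at 3.36 (adjusted p = 0.0292). Over 4 experiments Nnat was called (3.74, SE 0.70, adjusted p = 0.0237), as 1 of 8 members against 3.36% of genes, but not without C57 RT 2 or any 1 library of the Adrb1 line (3.24 to 3.87). With 0.229 to 3.60 CPM in the 4 RT libraries it passed the filter on low counts through the COLD libraries. Neither this call nor the values of Nnat with the block and with DESeq2 are read as support for a change. After cold, Nnat in ASC2-like cells was below immune-like cells in 4 of 4 libraries, which held 10.8 to 78.0 CPM. Thinned, the share of cells with an Nnat count was higher in ASC2-like than in immune-like cells in C57 COLD 1 (4.82% against 2.93%, unthinned 6.86% and 6.53%) and lower in the other 3, of which C57 COLD 2 was higher unthinned (4.46% against 3.75%). The part of free RNA was not tested.

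ASC3-like cells gave the same kind of result. After cold 0 of 9 members were called by edgeR and by DESeq2, with 0.087% of all genes called by edgeR. With edgeR 3 members and 666 of all 10348 genes had an unadjusted p under 0.05. Nnat was at 7.88 and 2.35 CPM in RT and 37.3 and 12.8 in COLD, passed the threshold with the replicate block (2.01, adjusted p = 0.0449), and over 4 experiments was the 1 member of 7 to pass it (2.95, SE 0.61, adjusted p = 0.0305), where 3.72% of genes did. In the fit over 4 experiments it passed the filter on low counts through the COLD libraries, with at most 7.88 CPM at RT, and neither value is read as support for a change. The threshold was missed without C57 COLD 1, C57 RT 2 or any 1 library of the Adrb1 line (2.18 to 2.82), and the level was again below immune-like cells in 4 of 4 COLD libraries. Under CL 0 of 9 were called by edgeR, with 0.00966% of all genes called. An unadjusted p under 0.05 was reached by 6 members and by 644 of all 10348 genes. DESeq2 called H19, which is not read as a call for the reason given below.

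H19 in ASC3-like cells was at 1.91 and 0 CPM in RT, 2.71 and 1.63 in COLD and 246 and 20.1 under CL. It passed the filter on low counts through the CL libraries only, so its fitted values, 6.44 (SE 1.32, adjusted p = 0.256) and, with the replicate block, 6.74 (adjusted p = 8.24e-06), are given without being read as a call. The first CL library stood far above the second, and above its immune-like cells at 58.0 CPM, while the second lay below its own at 41.9. In the same C57 CL 1 library ASC3-like cells also held more Plagl1 (104 CPM against 12.7 in CL 2), Cdkn1c (237 against 55.7) and Dlk1 (31.1 against 4.84). Without C57 CL 2, Cdkn1c and Plagl1 were called, beside 0.857% of all genes, and H19 also passed the threshold but is not read as a call, for the same reason. ASC3-like cells of C57 CL 1 were above those of all 9 other libraries in these 4 members, and Cthrc1-high cells of that library, at 279 CPM of Cdkn1c and 211 of Plagl1, were high in them too.

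The difference in response between stromal classes was tested as such. The cold response of Peg3 was greater in ASC1-like than in ASC2-like cells by 1.76 on the log2 scale (SE 0.24, adjusted p = 0.000345) and than in ASC3-like cells by 1.05 (SE 0.19, adjusted p = 0.00541). The values for Nnat were -4.29 (SE 0.60, adjusted p = 0.000385) and -2.94 (SE 0.49, adjusted p = 0.00370). They rest mainly on the higher Nnat after cold in ASC2-like and ASC3-like cells, which lay below immune-like cells and is not read as a change above, so they are not read as a difference in response either. In each comparison these 2 of 9 members passed the threshold, against 8.7% and 6.2% of all genes. Against ASC3-like cells, Nnat was not called without C57 COLD 1 (-2.25) or C57 RT 1 (-2.98), and Peg3 not without C57 RT 2 (1.03) nor with DESeq2 (1.07, adjusted p = 0.0700). Under CL the response of Peg3 was greater in ASC1-like than in ASC2-like cells by 1.34 (SE 0.24, adjusted p = 0.00969), 1 of 9 members against 1.21% of genes, though not without C57 RT 2 (1.41, adjusted p = 0.0502) nor with DESeq2 (1.37, adjusted p = 0.121), which called 0. Without C57 CL 2, Dlk1 was called as well.

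In VEC-like cells 7 members were tested, without Dlk1, H19 and Igf2. After cold edgeR called 0 against 0.316% of all genes, and under CL 0 against 0% of all genes. An unadjusted p under 0.05 was reached after cold by 1 member and 1116 of 10132 genes. Under CL these were 2 members and 868 genes. Cdkn1c was at -0.86 after cold (SE 0.44, adjusted p = 0.520) and at -1.44 under CL (SE 0.44, adjusted p = 0.426). Mest under CL was at 1.61 (SE 0.37, adjusted p = 0.288). DESeq2 called 1 after cold, Nnat, and 0 under CL. Nnat was at 5.58 and 2.58 CPM in RT and 48.6 and 18 in COLD, and passed the filter on low counts through the COLD libraries only. So neither its DESeq2 value nor its edgeR value with the replicate block (2.87, adjusted p = 0.0220) is read as a call. Nnat was below immune-like cells in 4 of 4 COLD libraries. Without C57 CL 2, Mest was called under CL. H19 also passed the threshold there, but it passed the filter on low counts only through the remaining CL library and is not read as a call. H19 in VEC-like cells was at 12.8 and 6.59 CPM under CL, below immune-like cells in both libraries.

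Mural-like cells, the sum of pericyte-like and VSMC-like cells, also had 7 members tested, without Igf2, Mest and Plagl1. EdgeR called 0 after cold against 0.292% of all genes and 0 under CL against 0%. An unadjusted p under 0.05 was reached after cold by 1 member and 927 of 9929 genes. Under CL these were 2 members and 974 genes. Dlk1 was at 494 and 489 CPM in C57 RT, 106 and 149 in COLD and 176 and 121 under CL, with log2 fold changes of -1.85 (SE 0.35, adjusted p = 0.0752) and -1.58 (SE 0.35, adjusted p = 0.124). Pericyte-like cells, the class with more Dlk1, were 69% and 69.2% of mural-like cells in C57 RT, 45.5% and 56.7% in COLD and 61.2% and 46.1% under CL, and the part of this shift was not tested. Within pericyte-like cells the RT libraries were also above the others, as given above. DESeq2 called Dlk1 in both comparisons (adjusted p = 0.00327 and 0.0294), where it called 47 genes in all after cold and 71 under CL. After cold it was called without C57 RT 2 (-2.10, adjusted p = 0.0392) or without C57 RT 1. H19 under CL was at 104 and 63.1 CPM against 8.57 and 30.4 (2.38, SE 0.46, adjusted p = 0.0724), was called with the replicate block (2.40, adjusted p = 0.0429) and by DESeq2 (adjusted p = 0.0285).

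Dlk1 in mural cells went the other way in the Adrb1 line. In pericyte-like cells it was 3.36- and 3.06-fold lower after cold in the 2 C57 pairs, but 3.31-fold higher in WT, from 50.7 to 168 CPM, and 3.62-fold higher in KO, from 80.5 to 291 CPM. The RT values rest on 8 and 14 whole counts in WT and KO. The share of KO pericyte-like cells with a Dlk1 count hardly moved, at 4.62% in RT and 4.69% in COLD (unthinned 5.97% of 67 and 5.75% of 87 cells), so the higher level lay in few cells. In WT the share was 3.39% in RT and 7.06% in COLD (unthinned 6.67% and 9.45%). The RT libraries of that line were the ones made with the version 3 kit, and the difference between lines was not tested.

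Other imprinted genes were taken from a list of 48, of which 46 were in the tables. After cold in ASC1-like cells 6 of 32 tested were called, beside 12.5% of all genes. Slc38a4, an amino acid transporter (2.16), and Asb4 (1.05) rose, and Osbpl5 (-1.08), Airn (-0.78) and Blcap (-0.66) fell. Dio3, a deiodinase at the Dlk1 and Meg3 locus, also passed (-3.23). It was at a mean of 6.93 CPM in C57 RT and 0.778 in COLD, and at so low a level it is not read as support for a change. Over 4 experiments 11 of 32 were called, beside 26.8% of all genes. Of the 8 with the largest change, Slc38a4 (2.10), Peg10 (1.22) and Mcts2 (1.05) rose and Ppp1r9a (-1.62), Airn (-1.15) and Osbpl5 (-1.0) fell. Dio3 (-2.10) and Tspan32 (-2.08) make up the 8. Tspan32 was at a mean of 3.05 CPM in C57 RT and 0.857 in COLD, and like Dio3 it is not read as support for a change. The median log2 fold change of all 32 tested was -0.24 in C57 mice and -0.36 over 4 experiments. Over 4 experiments 1 of 27 was called in ASC2-like cells, Ppp1r9a (-1.07), and 1 of 25 in ASC3-like cells, Airn (-0.73), beside 3.36% and 3.72% of all genes. In the C57 comparisons of cold or CL with RT in the other classes, of CL with RT in ASC1-like cells and of cold with CL, edgeR called none of the list. The difference in cold response between ASC1-like and ASC2-like cells was called for 4 of 32 (Slc38a4 at 2.26, Cd81 at -1.98, Osbpl5 at -0.80 and Sgce at -0.67), and against ASC3-like cells for 1 of 30, Cd81 (-2.11), beside 8.7% and 6.2% of all genes.

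The genes with the most similar pattern were sought among 9990 genes over 113 class-by-library levels of 14 classes, by Pearson correlation of log2 levels. These are descriptions, and the points share libraries. Nnat was closest to Arxes1 (0.862), Arxes2 (0.835) and Mrap (0.815), and Dlk1 to Higd1b (0.761), Fam162a (0.751) and Ndufa4l2 (0.740). Meg3 was closest to Lhfp (0.812), Grb10 to Ppic (0.769), Peg3 to Gas1 (0.730), Plagl1 to Bcl7c (0.696) and Cdkn1c to Tek (0.623), the endothelial angiopoietin receptor. H19 (Slc38a4, 0.565), Mest (Itm2a, 0.591) and Igf2 (Gkn3, 0.593) had no gene as close. Slc38a4, nearest to H19, is itself imprinted. Among the members the highest correlations were those of Meg3 with Peg3 (0.500), Peg3 with Grb10 (0.479) and Cdkn1c with Grb10 (0.454).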

How the data were processed

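Per the labels and the study's methods, the authors processed reads with Cell Ranger 3.0.1 (mm10) and removed cell-free RNA with SoupX, using Fabp4 and Car3 as genes not expressed. The deposited values are these corrected UMI counts, expected counts that need not be whole. Cells were kept by the stated limits for Lin- cells (mitochondrial share under 10%, total under 15000, over 100 genes), aligned and clustered (scanpy 1.11.5, Leiden resolution 1) without 133 naming or reported genes. Clusters were named from markers and their cells summed per library. High doublet scores were removed only as an alternative.

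Sums were rounded to whole numbers and tested with edgeR 4.0.16 (quasi-likelihood, two-sided, TMM, filterByExpr, Benjamini-Hochberg over all genes), with the 3 C57 groups in 1 fit. Libraries are pools of mice, so p-values measure the spread between pools. Members, gene lists and tests were chosen with earlier results of these data known. The genes named are the 10 members and the called genes of the list of imprinted genes (at most the 8 of largest change). The study's methods merge C57 libraries of the same replicate experiment, so the replicate number was tried as a block, as an alternative. Over the 5 classes, deviations of same-numbered libraries correlated by 0.027 to 0.205 for RT and COLD, by 0.121 to 0.311 for COLD and CL and by -0.121 to 0.072 for RT and CL, so the data do not bear out a pairing of RT with CL. In simulated counts for cold in ASC1-like cells, 82.5% of genes changed by 2 on the log2 scale and 27.1% changed by 1 were recovered. Other alternatives were DESeq2 1.42.0, no scaling beyond library size, no filter on low counts, Leiden resolution 0.5 and each library left out. Intervals and floors cover counting error only.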

Additional observations from a re-analysis of the deposited data

Results flagged for a closer look

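In 5 cases the interaction term of edgeR between stromal classes passed the threshold. For the cold response these were Nnat at -4.29 and Peg3 at 1.76 between ASC1-like and ASC2-like cells, and Nnat at -2.94 and Peg3 at 1.05 for ASC1-like against ASC3-like cells. Nnat in ASC2-like and ASC3-like cells, on which its values mainly rest, lay below immune-like cells in 4 of 4 COLD libraries, so they are not read as a difference in response, and -2.94 was not called without C57 COLD 1 or C57 RT 1. For the CL response it was Peg3 at 1.34 between ASC1-like and ASC2-like cells.

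In 4 cases both C57 pairs moved one way after cold and both WT and KO the other, a difference that was not tested. The share of all genes that did so is not given here. Pericyte-like cells are part of mural-like cells, so the Dlk1 cases are not separate. The mean log2 of cold over RT in WT and KO minus that in C57 was 3.47 for Dlk1 in pericyte-like cells, 3.90 for Dlk1 in mural-like cells, -1.20 for Meg3 in ASC2-like cells and -1.06 for Plagl1 in VEC-like cells. Pericyte-like cells went from 24.5% to 44.3% of mural-like cells with cold in WT and from 56.3% to 54.7% in KO, but from 69% to 45.5% and from 69.2% to 56.7% in C57. Meg3 in ASC2-like cells went from 1456 and 1261 to 1616 and 1657 CPM in C57 but from 2743 to 1197 in WT and from 1768 to 1125 in KO. Plagl1 in VEC-like cells went from 4.40 and 6.09 to 5.19 and 8.49 CPM in C57, from 21.2 to 10.8 in WT and from 17.4 to 13 in KO. Cold, kit version and collection day cannot be told apart in WT and KO.

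The Lin+ libraries, of cells bound by the lineage beads, were in no comparison. In both C57 CL libraries of that fraction 5 members were above both C57 RT libraries as sums over all kept cells. The share of all genes that were so is not given here. Meg3, which was not among them, stood at 81.6 CPM in C57 CL 2, 12.4 in C57 CL 1 and 15.7 and 17.3 in C57 RT. The lower of the CL values was 1.38 CPM for H19 (highest at RT 1.22), 2.43 for Nnat (0.978), 1.98 for Peg3 (0.960), 1.33 for Plagl1 (1.30) and 3.42 for Grb10 (3.09). All 5 are low, and no test was run.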

How the results depend on the processing

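Of 190 values of called members under the alternatives, 164 kept their direction and call, 26 lost the call and 0 turned, and of 90 shares of cells with a count, 67 moved without thinning. Dlk1 and Peg3 after cold in ASC1-like cells were called in all 14 settings (-5.46 to -3.71 and 1.35 to 2.41) and Mest in 12. Igf2 did not pass the filter on low counts in any class, and 2 libraries per group limit all C57 comparisons. The cause of the changes below was not tested. Counts of called members below include values that the results do not read as calls. Among them are H19 under CL in ASC3-like and VEC-like cells without C57 CL 2, and H19 in ASC1-like cells without C57 RT 2.

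Counts of called members moved as follows. Without a filter on low counts, they were 5 for cold in ASC1-like cells, 3 for CL in ASC1-like cells, 2 for cold and 2 for CL in ASC2-like cells, 2 and 4 in ASC3-like cells, 2 and 3 in VEC-like cells, 2 and 2 in mural-like cells, 4 for cold against CL, 3 for the difference in CL response and 2 for cold over 4 experiments in ASC2-like cells. DESeq2 gave 2 for CL in ASC1-like cells, 1 and 1 in ASC2-like cells, 1 for CL in ASC3-like cells, 1 for cold in VEC-like cells, 1 and 2 in mural-like cells, 1 for the difference in cold response of ASC1-like against ASC3-like cells, 0 for that in CL response and 2 over 4 experiments in ASC2-like cells. Library size alone gave 2 for CL in ASC1-like cells, 1 and 1 in ASC2-like cells, 1 for CL in ASC3-like cells, 1 for cold in VEC-like cells, 1 and 2 in mural-like cells, 2 for cold against CL and 2 over 4 experiments in ASC2-like cells. At resolution 0.5 the counts were 2 for CL in ASC1-like cells, 3 for the difference in CL response and 2 over 4 experiments in ASC2-like cells, and without top doublet scores 2 for the difference in CL response. The replicate block, a pairing of C57 libraries by number, gave 2 for CL in ASC1-like cells. It gave 1 each for cold and CL in ASC2-like cells, cold and CL in ASC3-like cells, cold in VEC-like cells and CL in mural-like cells. Of these, Nnat after cold in VEC-like, ASC2-like and ASC3-like cells and H19 under CL in ASC3-like cells are not read as calls. The block changed no other call of a member.

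Shares of all genes called moved with these counts. Without the filter they were 13.5% for cold and 4.26% for CL in ASC1-like cells, 1.12% to 2.68% in the other C57 comparisons with RT, 3.58% for cold against CL, 2.1% for the difference in CL response and 10.5% over 4 experiments in ASC2-like cells. With library size alone they were 7.78% and 2.39% in ASC1-like cells, 0.237% to 1.5% in the other C57 comparisons with RT, 0.948% for cold against CL and 5.36% over 4 experiments in ASC2-like cells. At resolution 0.5 they were 2.04% for CL in ASC1-like cells, 1.93% for the difference in CL response and 4.64% over 4 experiments in ASC2-like cells, and without top doublet scores 1.47% for the difference in CL response. With 1 library left out they ran from 3.87% to 15.7% for cold and 0.399% to 3.01% for CL in ASC1-like cells, reached at most 2.46% in the other C57 comparisons with RT, and ran from 0.0235% to 1.63% for cold against CL, 3.53% to 9.96% and 1.72% to 7.56% for the differences in cold response, 0.639% to 2.56% for that in CL response, and 14.8% to 26.3%, 0.681% to 3.61% and 0.435% to 9.6% over 4 experiments in ASC1-like, ASC2-like and ASC3-like cells.

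With 1 library left out, counts ran from 2 to 5 for cold and 0 to 2 for CL in ASC1-like cells, 0 to 1 and 0 to 1 in ASC2-like cells, 0 to 3 for CL in ASC3-like cells, 0 to 2 for CL in VEC-like cells, 0 to 1 for cold in mural-like cells, 0 to 1 for cold against CL, 2 to 3 and 1 to 2 for the differences in cold response, 1 to 2 for that in CL response, and 3 to 6, 0 to 1 and 0 to 1 over 4 experiments.

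Over all genes, the calls of edgeR, DESeq2 and the blocked fit were 183, 334 and 344 for CL in ASC1-like cells, 74, 122 and 165 for cold and 5, 53 and 40 for CL in ASC2-like cells, 9, 30 and 70 and 1, 26 and 67 in ASC3-like cells, 32, 61 and 55 and 0, 14 and 0 in VEC-like cells, 29, 47 and 83 and 0, 71 and 105 in mural-like cells, and 51, 100 and 81 for cold against CL. For the differences in response edgeR and DESeq2 called 1061 and 391, 705 and 308, and 148 and 56, and over 4 experiments in ASC3-like cells 382 and 240.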
